A study of Mus musculus with 6 samples.

Results

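The lysosomal genes described here are Ctsb, Ctsd, Ctss, Glb1, Gusb, Ids, Npc2, Psap, Lamp1 and Lamp2. Their members are all Argonaute (Ago) footprints that overlap 1 of these 10 genes on its own strand in the GENCODE vM1 annotation of mouse build mm9, 41 of the 6270 footprints in the deposited table. Each of the 10 genes carried at least 1 footprint, and 40 of the 41 overlapped a 3′ UTR and 1 lay in an intron. Ago proteins hold microRNAs (miRNAs) and, through them, target mRNAs. In HITS-CLIP, RNA cross-linked to Ago in living cells is recovered by immunoprecipitation and sequenced, so that a footprint marks a stretch of RNA that Ago occupied. Bone-marrow-derived macrophages were grown with M-CSF from C57BL/6 mice aged 6 to 12 weeks, taken as 3 pairs of littermates. One group of 3 libraries came from wild-type (WT) mice and the other group of 3 from APOBEC1-deficient littermates (Apobec1-/-, called KO). APOBEC1 is an enzyme that deaminates cytidine to uridine in certain mRNAs. Both groups had the same strain, culture and Ago antibody (2A8), and no treatment other than the growth medium is given. The deletion is carried by the whole animal and is not limited to macrophages.

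Lysosomes are acidic organelles in which soluble hydrolases break down proteins, sugars and lipids taken up by endocytosis, phagocytosis or autophagy. Most of these enzymes are made in the endoplasmic reticulum, tagged with mannose 6-phosphate and sorted to the lysosome, while heavily glycosylated membrane proteins line its inner face. Macrophages, which digest what they engulf, are rich in lysosomes and in their proteases.

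Occupancy is the authors' ratio of footprint signal to the RNA-Seq expression of its transcript, with 1 combined value per genotype. There is therefore no replicate check, no SD and no test of KO against WT for any value below. A log2 ratio of KO over WT of at least 1 in size (2-fold, with a pseudocount of 0.00161 added to both values) is used as a mark of size only. The table also gives how many of the 3 libraries of each genotype held a footprint, but not which ones. It holds no read counts, so depth is unknown. Of 13 macrophage marker genes, Spi1 was not in the annotation under that name and could not be looked up. Of the others, 10 carried a footprint and Cd68 and Mertk did not, against 0 of 4 T-cell, 0 of 3 B-cell, 0 of 4 neutrophil and 0 of 4 fibroblast markers. Footprints are numbered within each gene from the 5′ to the 3′ end, and coordinates are mm9, counted from 1.

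The sequences that identify miRNA sites in these footprints are shown first, because a footprint is read through the miRNA that could pair with it. A miRNA pairs mainly through its seed, bases 2 to 8, and the footprints were searched on their own strand for the reverse complement of the seeds of 29 miRNAs with a sequence in the RefSeq table. A match was present in 6 of the 41 footprints (14.6%), against 1354 of all 6270 (21.6%). The capitals mark the seed in each miRNA and the matching motif in each footprint, and every sequence runs 5′ to 3′.
miR-24-3p: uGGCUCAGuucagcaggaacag
Ctsb footprint 6: ctcaggtgCTGAGCCa
Npc2 footprint 6: tgtgtatcctttcaccCTGAGCCc
miR-27a-3p: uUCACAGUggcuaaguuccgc
miR-128-3p: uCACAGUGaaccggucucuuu
Npc2 footprint 3, miR-27 motif: ccagggctatggatccACTGTGAa
Npc2 footprint 3, miR-128 motif: cccagggctatggatcCACTGTGa
let-7a-5p: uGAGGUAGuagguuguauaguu
Gusb footprint 1: cgttctaaagttacaaCTACCTCa
miR-182-5p: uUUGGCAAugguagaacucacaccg
Ctsd footprint 1: tagggtcggctTTGCCAAt
miR-22-3p: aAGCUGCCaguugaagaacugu
Ctsd footprint 2: ccctcatcctgggctaGGCAGCTg

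The miR-24 motif, CTGAGCC, was held by 0.813% of all footprints and by 2 of the 41. It lay at chr14:63763794-63763800 on the plus strand in Ctsb and at chr12:86096366-86096372 on the minus strand in Npc2. The motifs ACTGTGA (miR-27, 1.59% of all footprints) and CACTGTG (miR-128, 1.48%) overlapped in Npc2 at chr12:86097710-86097717, so that 1 stretch matched both seeds. CTACCTC (let-7, 0.750%) lay at chr5:130465373-130465379 in Gusb on the minus strand. TTGCCAA (miR-182, 0.734%) and GGCAGCT (miR-22, 0.718%) lay on the minus strand in Ctsd, at chr7:149562492-149562498 and chr7:149561865-149561871. miR-140-5p and miR-150-5p were listed but not searched. A match is a description of letters and not evidence that the miRNA bound there.

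Several footprints with a high occupancy or a wide difference between the genotypes, chosen after their values were seen, held none of these motifs. Their middle 30 bases are given, and for Ctsb those of the stretch that the overlapping footprints share. They carry no capitals because none of the searched motifs was present. As an alternative, matches to bases 2 to 7 followed by A were also searched, and none of these footprints held one. Other shorter matches were not searched. Where within a footprint Ago bound was not tested, so these bases are not located target sites.
Ctsb, stretch common to footprints 7 and 8: acctgagctacagttacagtgtacaagtgt
Lamp2 footprint 6: gagatacctccaaagcactgttttatagaa
Ids footprint 1: tgcatttcagatagtaaccatatgtcttac
Glb1 footprint 1: tcacctctctgcttgcctgaggagagtatc
Glb1 footprint 2: aactcgaggctatcctcctgcctctgcctc

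These stretches lie at chr14:63764400-63764429 (plus strand), chrX:35773029-35773058 (minus), chrX:67599019-67599048 (minus), chr9:114315519-114315548 (plus) and chr9:114317865-114317894 (plus). The middle 30 bases of each of the 41 footprints occurred exactly once in the genome, counting both strands. Near-identical copies were not searched, so this count does not show whether any footprint lies in a repeated sequence.

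The lysosomal footprints did not lean to either genotype as a set. The median log2 ratio of KO over WT was 0.00, against -0.04 over all 6270 footprints, with 21 footprints higher and 20 lower. At least 2-fold higher were 8 of 41 (19.5%), beside 18.9% of all footprints, and at least 2-fold lower were 6 of 41 (14.6%), beside 24.2%. Both shares come from few footprints, and the first is close to that of the whole table. The wide differences sat in particular footprints of particular genes. The 8 higher ones were 3 of Ctsb, 2 of Npc2, 1 of Psap and both placed in Glb1. The 6 lower ones were 2 each of Ids and Lamp1 and 1 each of Gusb and Npc2, and 4 of these 6 were listed at 0 in KO, for which no fold is given. Just inside the 2-fold mark was Ctsb footprint 4, with a log2 ratio of 1.18, and just outside were Ctsb footprint 2 at 0.99 (2.12-fold without the pseudocount) and Lamp2 footprint 3 at -0.92.

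All 6 lysosomal footprints that were at least 2-fold lower were held by 0 KO libraries, as were 69.4% of the 1518 lower footprints of the whole table. A footprint was kept when at least 2 libraries of 1 genotype held it, so these 6 entered through WT alone. Their 0 KO libraries therefore add no support to the difference. Of the 41 lysosomal footprints, 18 were kept through WT alone (43.9%), beside 59.9% of all footprints. Through KO alone, 2 of the 41 were kept, beside 321 of all 6270. None of the 8 that were higher was held by all 3 WT libraries, beside 2.11% of the 1184 higher ones of the table. The ratio followed G+C content across the whole table. When the 6270 footprints were split into 10 bins by G+C, the median log2 ratio ran from -0.82 in the bin of lowest G+C to 0.62 in that of highest. G+C was 44.8 to 63.5% in the 8 higher footprints (median 51.8%) and 32.0 to 55.1% in the 6 lower ones (median 40.6%). With the median of its G+C bin subtracted from each ratio, 8 footprints were higher and 7 lower by 2-fold, but not the same ones. Ctsb footprint 4 came to 0.95 and no longer passed, while Lamp2 footprint 9 (1.29) and Lamp2 footprint 3 (-1.02) then did. The part of G+C content in any single difference was not tested. Beyond this, in bulk lysates, binding in fewer cells and weaker binding in each cell cannot be told apart.

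**Figure D1:**
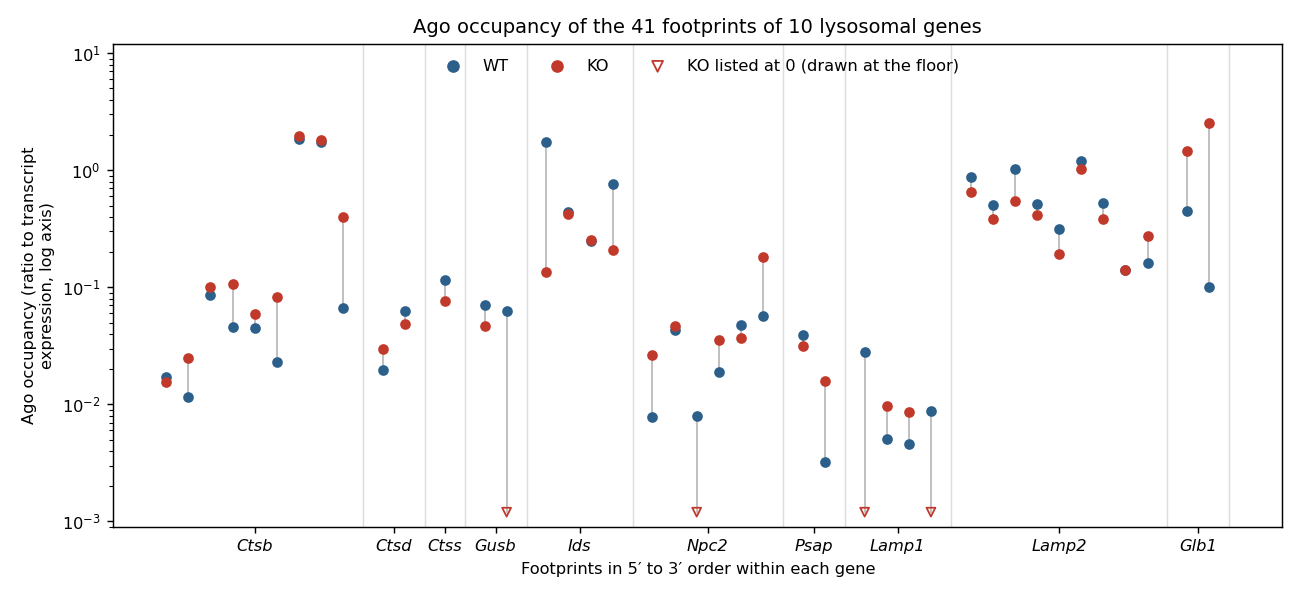
Ago occupancy (ratio to transcript expression, log axis) of the 41 footprints, in 5′ to 3′ order within each gene, with WT in blue and KO in red joined by a line. Open triangles mark the 4 KO values listed at 0, drawn at a fixed low level. Among the pairs above 0 in both genotypes, those furthest apart are Ids footprint 1 and Glb1 footprint 2. Ids footprint 1 had 0.134 in KO and 1.74 in WT, and Glb1 footprint 2 had 2.53 in KO and 0.101 in WT.

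Ctsb encodes cathepsin B, a cysteine protease of the lysosome. Together with Lamp2 it carried the most footprints of the 10 genes, 9. All 9 overlapped the 3592-nt 3′ UTR of transcript Ctsb-201 (gene at chr14:63741302-63764758, plus strand). An overlapping pair near the 3′ end, footprints 7 and 8, held most of the gene's occupancy. Footprint 7 (chr14:63764371-63764433) had an occupancy of 1.96 in KO and 1.87 in WT. Footprint 8 (chr14:63764396-63764458) had 1.83 in KO and 1.76 in WT. Both were held by all 6 libraries, and their log2 ratios of 0.07 and 0.06 were among the smallest of the 41. The 2 footprints share 38 nt, so they are not separate measurements of Ago binding. The pair made up 92.5% of the gene's summed occupancy in WT and 82.7% in KO.

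The other 7 Ctsb footprints were weak, at 0.0116 to 0.0861 in WT, and 6 of them were higher in KO. They summed to 0.792 in KO and 0.295 in WT (log2 ratio 1.42). Footprint 9 (chr14:63764638-63764701), whose midpoint lies 89 nt before the annotated end of the transcript, showed the widest difference, with 0.402 in KO (3 libraries) and 0.0667 in WT (2 libraries), 6.03-fold. Its neighbour upstream, the pair, did not share this difference, although footprint 7 lies only 356 nt from the same end.

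Footprint 6, which holds the miR-24 motif, had 0.0832 in KO and 0.0228 in WT (log2 ratio 1.80), held by 1 KO library and 2 WT libraries. Footprint 4 had 0.107 in KO and 0.0463 in WT (1.18), and footprint 2 had 0.0247 and 0.0116 (0.99). Footprints 3 and 5 were closer, at 0.100 against 0.0861 and 0.0592 against 0.0446. Footprint 1, which spans the stop codon, was the only one that was lower in KO, at 0.0155 against 0.0172. The gene summed to 4.58 in KO and 3.92 in WT (log2 ratio 0.23), to which the pair contributed most. The end of this 3′ UTR overlaps Fdft1 on the other strand, and strand was taken from the footprint identifier.

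The other proteases were occupied at low levels per transcript, and none of their footprints differed by 2-fold. Ctsd encodes cathepsin D, the main aspartic protease of lysosomes, and carried 2 footprints in Ctsd-001. Footprint 1, whose midpoint lies 2 nt past the stop codon and which holds the miR-182 motif, had 0.0298 in KO and 0.0196 in WT (log2 ratio 0.56) and was held by all 6 libraries. Footprint 2, 600 nt past the stop codon with the miR-22 motif, had 0.0485 in KO and 0.0630 in WT (-0.37), held by 2 KO and 3 WT libraries. The 2 differed in opposite directions, and their sums, 0.0783 in KO and 0.0827 in WT, were close. Ctss encodes cathepsin S, a cysteine protease that trims the invariant chain of MHC class II molecules in antigen-presenting cells. Its single footprint (chr3:95360130-95360198, plus strand) had 0.0759 in KO and 0.115 in WT (-0.59), and all 6 libraries held it.

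Ids showed the lowest summed ratio of the 10 genes. It encodes iduronate 2-sulfatase, which acts in the breakdown of heparan and dermatan sulfate and is deficient in Hunter syndrome. Its 4 footprints lie in the 3132-nt 3′ UTR of Ids-001 on the minus strand of the X chromosome. Footprint 1 (chrX:67599001-67599065), 343 nt past the stop codon, had an occupancy of 0.134 in KO and 1.74 in WT, 0.0771-fold. All 3 WT libraries held it and 0 KO libraries did. Footprint 4 (chrX:67596596-67596670) was also lower, at 0.209 in KO and 0.761 in WT (log2 ratio -1.86), with 0 KO and 2 WT libraries. Between these, footprints 2 and 3 barely differed, at 0.422 against 0.442 and at 0.253 against 0.250, each with 1 KO and 2 WT libraries. The gene summed to 1.02 in KO and 3.20 in WT (log2 ratio -1.65).

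A value above 0 stands beside 0 KO libraries in footprints 1 and 4, and the sources used here do not say how such a value came about. Each of the 4 KO values was also equal to that of other footprints elsewhere in the table, 4 others for footprint 1 and 1 or 2 for the rest, while none of the 4 WT values was shared. Neither feature is peculiar to Ids. Over the whole table, 33.3% of the nonzero KO values recurred digit for digit in another footprint, and 1462 of the 6270 footprints (23.3%) had a KO value above 0 beside 0 KO libraries. Among the 41, the latter held for 5, which besides the 2 of Ids were Npc2 footprint 5, Lamp1 footprint 3 and Lamp2 footprint 5. Footprint 1 had a G+C content of 38.5%, in a bin with a median log2 ratio of -0.20, against its own -3.68. Footprint 4 had 32.0%, in a bin with a median of -0.53, against -1.86.

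Gusb, which encodes the glycosidase beta-glucuronidase, carried 2 footprints near the stop codon on the minus strand of chromosome 5. Footprint 1 (chr5:130465340-130465404), with the let-7 motif, had 0.0472 in KO and 0.0709 in WT (log2 ratio -0.57), held by 1 KO and 2 WT libraries. Footprint 2 (chr5:130465208-130465274) was listed at 0 in KO, with 0 libraries, and at 0.0626 in WT, with 2. The summed log2 ratio of -1.47 therefore rests on the value listed at 0.

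The 2 footprints placed in Glb1 were both more than 2-fold higher in KO, 1 of them with the highest ratio of the 41, but they do not lie on the annotated mRNA of beta-galactosidase, the enzyme the symbol stands for. The annotation gives the symbol Glb1 to 2 gene identifiers. One holds the transcripts Glb1-201 to Glb1-203, with 15 or 16 exons, and neither footprint overlaps an exon of these. The other holds Glb1-204, with 2 exons and 1344 coding nt, of which 0 are shared with the beta-galactosidase transcripts. RefSeq's gene table for GRCm38.p6 lists a separate gene, Tmppe, on the same strand within this region. Footprint 1 (chr9:114315491-114315575) lay in the 3′ UTR of Glb1-204 and had 1.45 in KO and 0.445 in WT (log2 ratio 1.70), held by 2 libraries of each genotype. Footprint 2 (chr9:114317835-114317923) lay 1441 nt past the end of Glb1-204, in an intron, and had 2.53 in KO and 0.101 in WT, 25.0-fold. It was held by 2 KO and 0 WT libraries, so it was kept through KO alone, and it was the only member in no WT library. The summed log2 ratio of 2.86 is thus no value for beta-galactosidase. Without these 2 footprints, 6 of 39 (15.4%) were at least 2-fold higher and 6 of 39 (15.4%) at least 2-fold lower.

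Npc2 and Psap encode soluble proteins that handle lipids in the lysosome. NPC2 binds cholesterol and passes it to the membrane protein NPC1, and prosaposin is cut into the saposins, which present sphingolipids to their hydrolases. Npc2 carried 6 footprints on the minus strand of chromosome 12, all at or below 0.180. The most distal, footprint 6 (chr12:86096330-86096396) with a miR-24 motif, was the strongest, at 0.180 in KO and 0.0565 in WT (log2 ratio 1.64), held by 1 KO and 2 WT libraries. Footprint 1, which reaches into the coding sequence, had 0.0263 in KO and 0.00782 in WT (1.56), held by 2 KO libraries and 1 WT library. Footprint 2, the only one of the gene held by all 6 libraries, had 0.0464 and 0.0432 (0.10). So the Npc2 footprint with the fullest support was almost equal between the genotypes.

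Among the remaining Npc2 footprints, footprint 4 had 0.0358 in KO and 0.0191 in WT and footprint 5 had 0.0368 and 0.0475. Footprint 3, 136 nt long with the overlapping miR-27 and miR-128 motifs, was listed at 0 in KO and at 0.00796 in WT. The 2 footprints with a miR-24 motif, in Ctsb and in Npc2, were both higher in KO, but each was held by only 1 KO library. The sum over Npc2 was 0.325 in KO and 0.182 in WT (log2 ratio 0.83), under 2-fold.

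Psap (chromosome 10, plus strand) carried 2 footprints in Psap-202. Footprint 1, 8 nt past the stop codon, had 0.0316 in KO and 0.0390 in WT (log2 ratio -0.29), with all 6 libraries. Footprint 2, 645 nt past the stop codon, had 0.0159 in KO and 0.00321 in WT (1.86), with 1 KO and 2 WT libraries. Its WT value is the lowest of all 6270, and a ratio against so small a value is sensitive to any change in it. Summed, the gene had 0.0475 in KO and 0.0422 in WT (0.16).

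**Figure D2:**
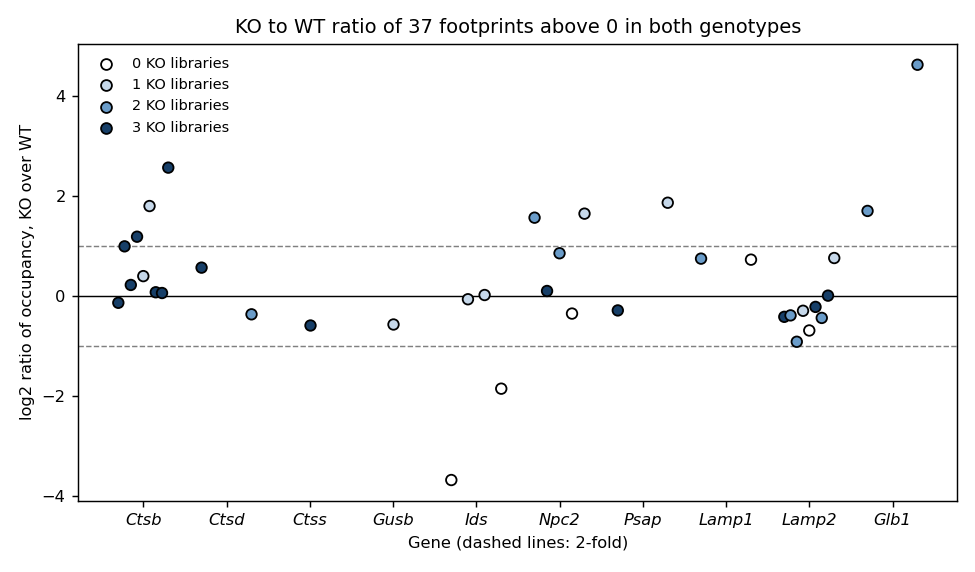
log2 ratio of occupancy, KO over WT, for the 37 footprints above 0 in both genotypes, in 5′ to 3′ order within each gene and shaded by the number of KO libraries that held the footprint. Of the footprints held by all 3 KO libraries (darkest), 12 lie within 2-fold, and Ctsb footprints 4 and 9 (1.18 and 2.56) lie outside.

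The 2 membrane proteins are the main glycoproteins of the lysosomal membrane, and their mRNAs differed widely in occupancy. Lamp1, on the plus strand of chromosome 8, carried 4 weak footprints, from 0.00459 to 0.0281 in WT. Footprint 1 was listed at 0 in KO and at 0.0281 in WT, and footprint 4 at 0 in KO and 0.00879 in WT, each with 0 KO and 2 WT libraries. Footprint 2, held by 2 libraries of each genotype, had 0.00965 in KO and 0.00511 in WT (log2 ratio 0.74), and footprint 3 had 0.00863 and 0.00459 (0.72) with 0 KO libraries. The 4 thus fell into 2 that were listed at 0 and 2 that were higher in KO. The summed ratio, -1.28 from 0.0183 in KO and 0.0465 in WT, becomes 0.81 when the footprints listed at 0 are left out. Footprint 4 overlaps Grtp1 on the other strand.

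Lamp2, on the minus strand of the X chromosome, carried 9 footprints and the highest summed WT occupancy of the 10 genes, 5.26, against 4.02 in KO (log2 ratio -0.39). Its transcripts end in alternative last exons, each with its own 3′ UTR, which give the proteins different membrane tails. The annotated tail of Lamp2-002 is that of LAMP-2B, and the tail of Lamp2-001 is that of LAMP-2A, the form that acts as receptor in chaperone-mediated autophagy. The remaining form, LAMP-2C, carried no footprint. The last exon of Lamp2-002 held 7 footprints and 94.3% of the gene's occupancy in WT (89.7% in KO).

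All 7 footprints of the LAMP-2B exon were lower in KO, by 0.529- to 0.858-fold, and none reached 2-fold before the G+C trend was removed. As occupancy is divided by the expression of the transcript, these 7 ratios are not separate measurements. Footprint 3 had 0.543 in KO and 1.03 in WT, footprint 5 had 0.194 and 0.315, and footprint 1 had 0.654 and 0.874. Footprint 6, the strongest in both genotypes, had 1.03 in KO and 1.20 in WT, and footprints 2, 4 and 7 had 0.386 and 0.506, 0.417 and 0.513, and 0.386 and 0.525. Footprint 6 was the highest and footprint 5 the lowest of the 7 in both genotypes. WT libraries holding these footprints numbered 2 or 3 for each, and KO libraries 3 for footprints 1 and 6, 2 for footprints 2, 3 and 7, 1 for footprint 4 and 0 for footprint 5. The KO value of footprint 5 was also shared exactly with 1 other footprint of the table. Their sum was 3.61 in KO and 4.96 in WT (log2 ratio -0.46). These footprints had low G+C, 31.7 to 43.1%, and with the median of each one's G+C bin subtracted, 5 were below 0 and 2 above, with a median of -0.15. The medians of those bins ran from -0.53 to 0.11.

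The 2 footprints of the LAMP-2A exon were not lower. Footprint 8, near its stop codon, had 0.140 in KO (3 libraries) and 0.139 in WT (2 libraries). Footprint 9 had 0.272 in KO and 0.160 in WT (log2 ratio 0.76), held by 1 KO and 2 WT libraries, and its KO value was shared exactly with 1 other footprint. The 2 summed to 0.412 in KO and 0.300 in WT (0.46), a difference that comes from footprint 9. Their G+C was 28.6 and 33.8%, in bins whose medians were -0.82 and -0.53. Whether the 2 exons differed in their response was not tested. The divisor is given only as transcript expression, and the sources used here do not say whether it was taken per isoform.

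**Figure D3:**
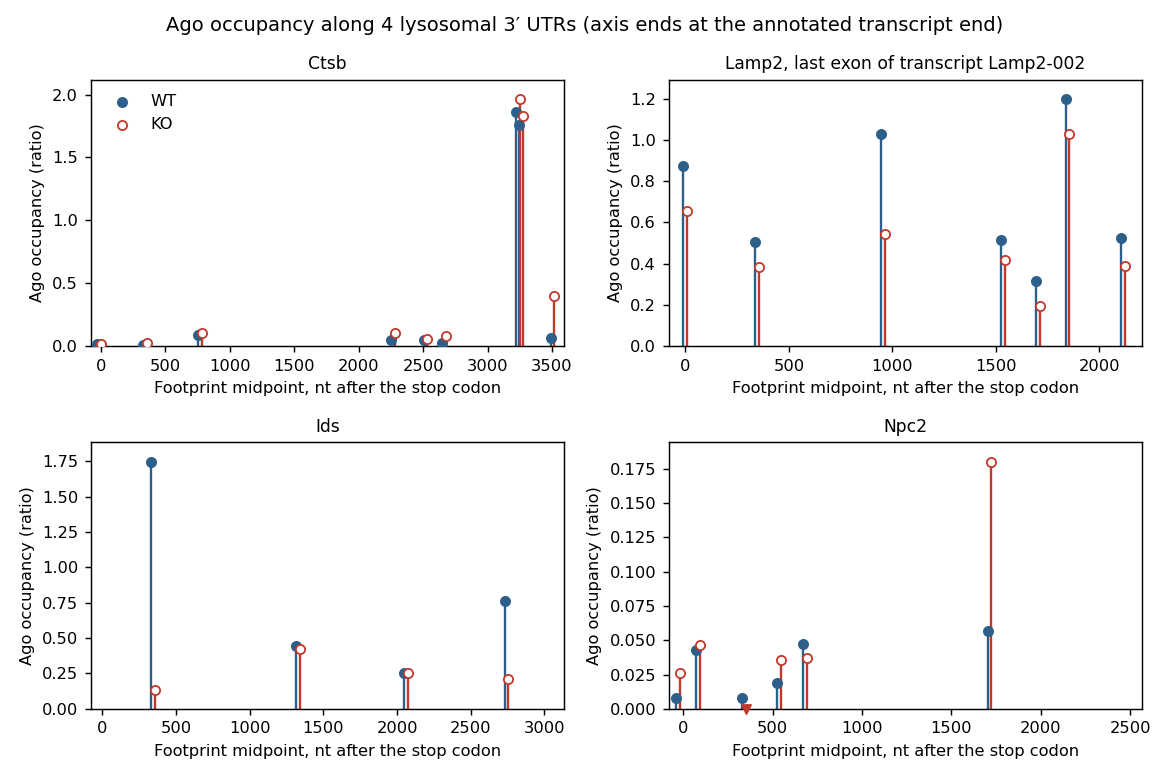
Ago occupancy (ratio, linear axis from 0) against the distance of the footprint midpoint from the stop codon for Ctsb, the Lamp2-002 last exon, Ids and Npc2, with WT in filled blue and KO in open red, shifted slightly to each side of the true position. Ctsb occupancy is concentrated in the overlapping pair near the 3′ end, the 7 Lamp2-002 footprints are all lower in KO, and Ids footprint 1 stands at 1.74 in WT and 0.134 in KO. A triangle marks the Npc2 footprint listed at 0 in KO.

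Many of the lysosomal footprints were found in every library at a low occupancy per transcript. All 6 libraries held 10 of the 41 (24.4%), against 369 of 6270 (5.89%), and 21 (51.2%) were in at least 2 libraries of both genotypes, against 35.0% of all footprints. The 10 came from Ctsb (5), Ctsd, Ctss, Npc2, Psap and Lamp2 (1 each). Yet their median occupancy was 0.0611 in KO and 0.0646 in WT, where the 369 had 1.02 and 0.983. Ctsb footprints 1 and 2 and Ctsd footprint 1 had the 3 lowest mean occupancies of the 369. Psap footprint 1 ranked 10 from the lowest, Npc2 footprint 2 ranked 16, Ctsb footprint 3 ranked 25 and the Ctss footprint ranked 27. Only the Ctsb pair (ranks 232 and 237) and Lamp2 footprint 1 (rank 154) lay outside this low end. Over all 41 the median occupancy was 0.100 in KO and 0.0667 in WT, against 0.377 and 0.406 in the table, and 13 of 41 reached the table median of mean occupancy, 0.425. Occupancy is divided by transcript expression, whose values are not in the table, so signal and expression cannot be told apart here. Among the 10 footprints held by all 6 libraries, none passed 2-fold with the pseudocount, with log2 ratios from -0.59 to 0.99.

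**Figure D4:**
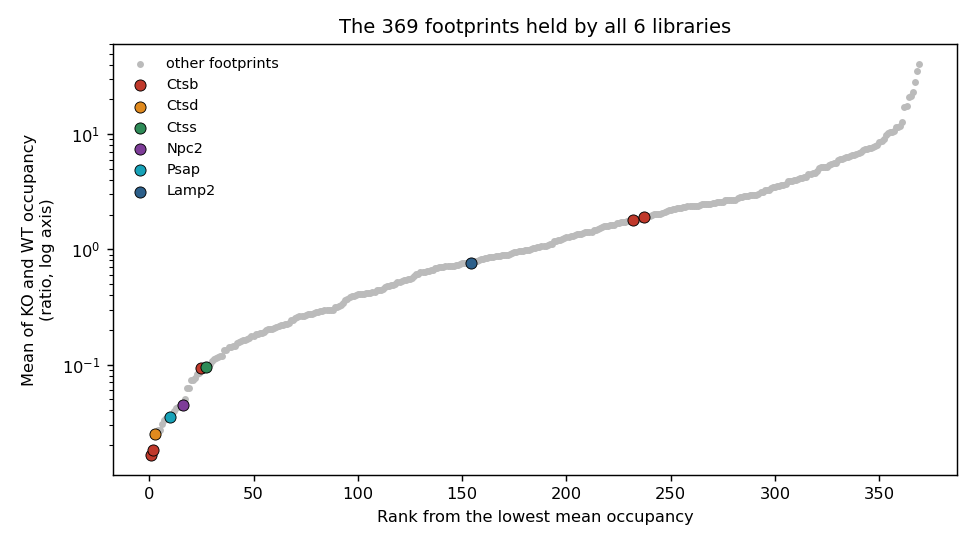
Mean of KO and WT occupancy (ratio, log axis) of the 369 footprints held by all 6 libraries, ranked from the lowest, with the 10 lysosomal ones coloured by gene. Of the 10, 7 lie at ranks 1 to 27 and the other 3 are Lamp2 footprint 1 and the Ctsb pair.

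By gene, 4 of the 10 had a higher summed occupancy in KO (Ctsb, Glb1, Npc2 and Psap) and 6 a lower one. Without Glb1, whose footprints lie off the annotated mRNA of beta-galactosidase, 3 were higher and 6 lower. At least 2-fold higher was 1 of 10 (Glb1), beside 11.7% of all 2223 genes, and at least 2-fold lower were 3 of 10 (Gusb, Ids and Lamp1), beside 17.9%. Of these 3, Gusb and Lamp1 rest on values listed at 0. Ids does not, but its lower footprints, 1 and 4, were held by 0 KO libraries. None of its footprints was in at least 2 libraries of both genotypes. Ordered by summed WT occupancy, the genes ran Lamp2 (5.26), Ctsb (3.92), Ids (3.20), Glb1 (0.546), Npc2 (0.182), Gusb (0.134), Ctss (0.115), Ctsd (0.0827), Lamp1 (0.0465) and Psap (0.0422). With 1 value per genotype, no spread can separate neighbours in this order. Nearest to Ctsb in summed KO and WT occupancy, among 760 genes with at least 3 footprints, were Setd5, Plek and Setd1b, and nearest to Lamp2 were Prkcb, Mbnl2 and Tmed7. This likeness covers only 2 values per gene.

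Other lysosomal genes were taken from a list of 104. Of these, 49 carried footprints, with a median summed log2 ratio of 0.03 against -0.04 over all genes, 25 higher and 24 lower. At least 2-fold higher were 6 of 49 and at least 2-fold lower were 7, to be read beside the same 11.7% and 17.9%. Among 17 other hydrolases, 11 were higher and 6 lower, with Ppt2, a thioesterase, the highest (log2 ratio 1.24). Among 8 other membrane proteins, 5 were higher, from Ostm1, a partner of the chloride transporter CLC-7 (-0.68), to Cd164, a sialomucin (2.69). Of 10 genes listed under the proton pump that acidifies the lysosome, 3 were higher and 7 lower. Atp6ap1, listed at 0 in KO, was among the 7. The others ran from Atp6v0e (-1.03) to Atp6v0a1 (1.14). This count leaves out Tcirg1, a pump subunit that was listed among the membrane proteins (1.97). Sorting factors were split evenly, 5 and 5, from the adaptor subunit Ap3m1 (-3.06, 0 KO libraries) to Nagpa, which uncovers the mannose 6-phosphate tag (3.22, 0 WT libraries). Of 4 genes that control lysosomal gene expression or mTORC1, the highest was the transcription factor Tfe3 (2.67) and the lowest the GTPase Rraga (-1.23, 0 KO libraries).

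**Figure D5:**
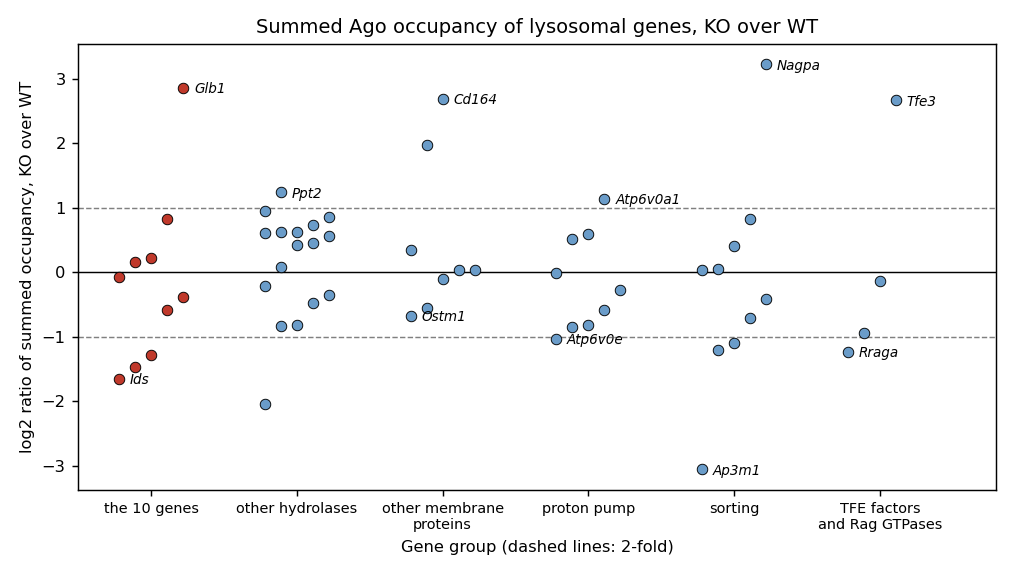
log2 ratio of summed occupancy, KO over WT, for the 10 lysosomal genes (red) and for 48 of the 49 other lysosomal genes by role (blue, without Atp6ap1, listed at 0 in KO), with genes at the ends of the groups named. Each group spreads on both sides of 0, and most genes lie within the dashed 2-fold lines.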

How the data were processed

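Ago HITS-CLIP was made from 6 macrophage libraries, 3 WT and 3 KO. The authors divided reads by length, per the series design text, aligned them to mm9, joined overlapping mRNA reads into clusters, took a footprint around each peak, and kept footprints found in at least 2 libraries of 1 genotype. The authors deposited occupancy as a ratio of footprint signal to RNA-Seq transcript expression, 1 value per genotype. The submitters' processing notes name Bowtie 0.12.8 and bedtools. The sources used here do not say how libraries were combined or scaled, or the unit of the divisor.

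Footprints were placed on GENCODE vM1, on the footprint's strand, and sequences were read from NCBIM37 with pysam 0.24.0. A pseudocount of 0.00161 (50% of the smallest value above 0) was added before the log2 ratio was taken, which understates differences of weak footprints. Gene values are sums over footprints. Positions refer to protein-coding transcripts. The placement and ratios were tested on simulated data. No fold is given for a value listed at 0. Seeds of 29 miRNAs came from the RefSeq table. Tables were handled with pandas 2.3.3 and numpy 2.4.6 and drawn with matplotlib 3.10.9.

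All 10 genes and all their footprints are named, with the highest and lowest gene per role of a wider lysosome list (1 of these is not reported here), and the 3 genes of nearest summed values to those with most footprints. The members and lists were chosen with earlier results of these data known. Alternatives covered the pseudocount, the filters, the fold threshold, the gene summary and the seed definition. Removal of the G+C trend, of single genes and of 1 footprint of the Ctsb pair was added after seeing the data.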

Additional observations from a re-analysis of the deposited data

How the results depend on the processing

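With 41 footprints and 1 value per genotype, counts past 2-fold are small and moved readily. The 8 higher and 6 lower footprints became 3 and 2 with a pseudocount of 0.1, 1 and 1 with a pseudocount of 1, and 2 and 2 among footprints at or above the table median. Only 2 were lower once both values had to be above 0, and 3 were higher and 0 lower among the 21 in at least 2 libraries of both genotypes, where 26.2% of all footprints were higher and 5.01% lower. Without Ctsb (added after seeing the data), 5 were higher. The median log2 ratio ran from -0.30 (at or above the table median) to 0.09 (G+C trend removed), and was 0.06 in at least 2 libraries of both genotypes, where that of all footprints was 0.42. Genes higher and lower, 4 and 6, became 2 and 2 at or above the table median, where only 4 genes remained. The lysosome list, with 6 genes higher and 7 lower, had 3 lower at a pseudocount of 0.1, 0 higher and 1 lower at a pseudocount of 1, 3 and 3 at or above the table median, 1 lower in at least 2 libraries of both genotypes (median 0.51 in place of 0.03, beside the same 0.42), and 3 lower at a 3-fold threshold. Lamp1 reversed to 0.81 above 0 in both genotypes and to 0.74 in at least 2 libraries of both. Psap reversed to -0.29 there and by its strongest footprint. Seed matches went from 6 footprints to 10 when bases 2 to 7 followed by A were used. The 10 were 24.4% of the 41, beside 22.3% of all footprints, while the 6 were 14.6%, beside 21.6%. The causes of these changes were not tested. No paired analysis was possible because the table holds 1 combined value per genotype. Depth is unknown.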
